A study of Mus musculus with 18 samples.

Results

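The laser-dissected wall of the wire-injured mouse carotid artery was compared between 14 and 21 days after injury, to ask how stable the neointima is between these days. The comparison used 7 of the 18 libraries of the time course, 3 from day 14 and 4 from day 21, and all 10312 genes that passed a filter on low counts among the 35655 in the count table. All mice were labelled WT and C57/BL6. They were male, were fed chow and were injured at an age of 11 weeks in the left carotid only, and vessels with thrombosis were left out. The 2 groups therefore differed in the time since injury alone, as far as the labels and methods state it. Each library holds RNA from up to 70 stained frozen sections, cut to contain the outer elastic lamina and the neointima, so the media is part of the tissue and no single cell type was isolated. The labels give each of these libraries its own mouse number, and the study also calls its neointima samples pooled, so the p-values below measure the spread between these libraries. The libraries of day 0 (4, pre-injury), day 7 (4) and day 28 (3) entered the same fit.

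Neointima is the tissue that builds up on the inner side of an artery after its endothelium has been stripped. Smooth muscle cells of the media lose part of their contractile programme, divide, migrate inward and lay down collagen, elastin and proteoglycans, while macrophages and other leukocytes enter early and later become fewer. Growth factors such as platelet-derived growth factor drive the early steps, and the later wall is shaped by matrix deposition and by partial return of the contractile genes.

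The 7 libraries held 440675 to 878310 counts. RNA was read by MACE-seq, in which each count is the 3′ end of a polyadenylated transcript, and the authors deposited Salmon's estimated counts per gene. Levels are given here as CPM, a library's counts scaled to a common total with TMM factors. Smooth muscle markers were high on both days, with the summed level of Acta2, Tagln, Cnn1 and Myh11 at 6870 to 21833 CPM on day 14 and 7691 to 20582 CPM on day 21. Skeletal muscle transcripts stood out in 2 libraries, with summed markers at 634 CPM in day 14 replicate 2 and 517 CPM in day 21 replicate 1 against 16 to 49 CPM in the other libraries. In bulk tissue, fewer cells of a type and less RNA per cell cannot be told apart. Correlations of log2 levels between a day 14 and a day 21 library ran from 0.810 to 0.867, beside 0.828 to 0.871 between day 14 libraries and 0.811 to 0.863 between day 21 libraries.

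No gene was called changed between day 14 and day 21. In edgeR's quasi-likelihood test, fitted over all 18 libraries with the day as the only term, 0 of 10312 genes (0%) passed a Benjamini-Hochberg adjusted p of 0.05, and the smallest adjusted p was 0.555. At an unadjusted p under 0.05 there were 421 genes, 195 higher on day 21 and 226 lower, which is 4.08% of the genes tested. A fit of the 7 libraries alone also called 0, with 675 of 8607 genes (7.84%) at that p, 383 higher and 292 lower, and a smallest adjusted p of 0.0517. limma-voom also called 0 genes, with 477 at an unadjusted p under 0.05. DESeq2 called 30, 5 of them higher and 25 lower, which is 4.19% of the 716 genes to which it gave an adjusted p. When its p-values were adjusted over all 10307 genes with a p, 3 of these calls were left. The same edgeR fit called 171 genes for day 14 against day 7, and 70 for day 28 against day 21.

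The interval of the change, rather than the missing call, shows for how many genes the data bound the change to a given range. A gene whose interval goes past the bound may still have stayed within it. The 95% interval of the log2 fold change lay within 2-fold in either direction for 1896 genes, 18.4% of those tested. This share depended on the level of the gene, taken as its mean CPM over the 7 libraries. It was 1 of 3974 genes at 10 to 30 CPM, where the median standard error was 0.79 on the log2 scale, 771 of 3940 at 30 to 100 CPM, and 791 of 1188 at 100 to 300 CPM. At 300 to 1000 CPM it was 244 of 336, and above that 89 of 122, with a median standard error of 0.236. For most genes under 100 CPM the interval thus reached past 2-fold. The median log2 fold change of all genes was -0.004 and its median size was 0.336. Among the 1690 genes with a mean of at least 100 CPM over all 18 libraries, 1.361% had an estimate beyond 2-fold. Leaving out any one day 14 library lowered the number held within 2-fold to 1164 without replicate 1, 1174 without replicate 2 and 1245 without replicate 3.

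**Figure D1:**
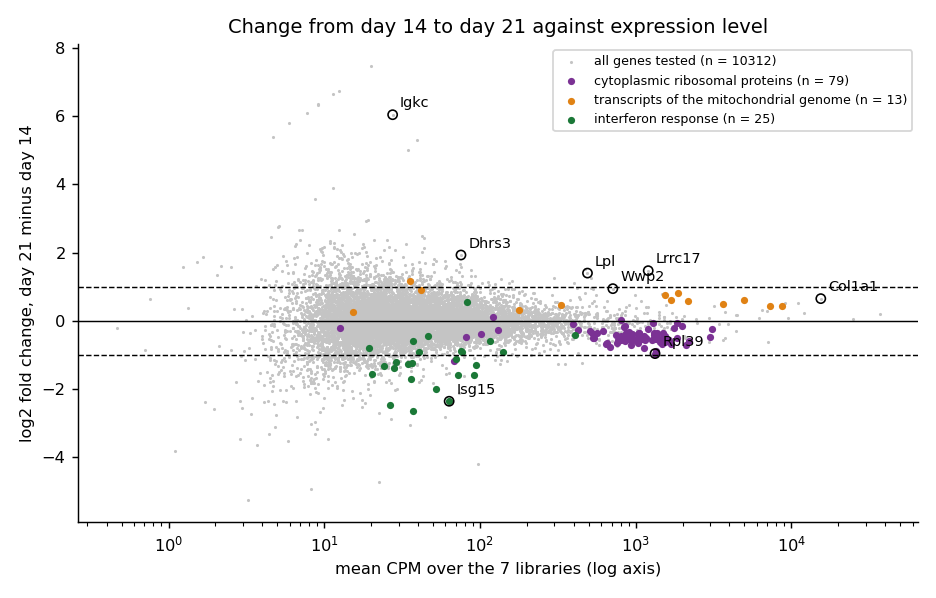
Log2 fold change from day 14 to day 21 against the mean CPM over the 7 libraries (log axis), 1 point per gene tested, with 3 gene lists in colour, some genes circled and named, and dashed lines at 2-fold. All but 2 of the 79 ribosomal protein genes lie below 0, most of them in a narrow band, and the spread of the other genes widens toward low levels.

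The 5 genes of at least 100 CPM with the smallest change were Ifngr1, Brd2, Sec61g, Eif3g and Col6a2. Ifngr1, a subunit of the interferon gamma receptor, had a log2 fold change of 0.0013 with an interval of -0.56 to 0.57. Col6a2, a chain of the beaded collagen VI, was at 291, 438 and 337 CPM on day 14 and at 560, 186, 360 and 307 CPM on day 21, which is a log2 fold change of -0.0018 with an interval of -0.68 to 0.68. The chaperone Serpinh1, which folds procollagen and was named from the list of collagen synthesis enzymes, was at 1689, 1964 and 2136 CPM and then at 1851, 2202, 1784 and 1726 CPM (log2 fold change -0.03, interval -0.55 to 0.49). The libraries of the 2 days overlapped for these genes, and the interval of Col6a2 reached a ratio of 1.60.

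The libraries of the 2 days did not overlap for 840 genes, 8.15% of those tested, with 382 (3.7%) higher on day 21 and 458 (4.44%) lower. The genes described next are those of smallest p among them, and none passed the adjusted threshold in edgeR.

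Among the genes higher on day 21 were 3 secreted ligands. Pdgfa, a chain of platelet-derived growth factor and a mitogen of mesenchymal cells, lies on chromosome 5 from 138961758 to 138983435 (GENCODE on GRCm39). It was at 131, 189 and 179 CPM on day 14 and at 565, 327, 296 and 391 CPM on day 21, which is a log2 fold change of 1.25 (standard error 0.29, edgeR adjusted p = 0.575, DESeq2 adjusted p = 0.0068). Bmp2, a bone morphogenetic protein that induces cartilage and bone, on chromosome 2 from 133394079 to 133404816, was at 7.998, 19.4 and 16.96 CPM and then at 79.3, 58.5, 51.0 and 72.1 CPM (log2 fold change 2.13, standard error 0.51). Wnt4, a Wnt ligand, on chromosome 4 from 137004373 to 137027037, was at 17.6, 35.3 and 23.5 CPM and then at 117, 72.7, 87.2 and 65.2 CPM (1.76, standard error 0.44). The lowest day 21 library of each ligand lay above its highest day 14 library, by a wide margin for Bmp2 and Wnt4. Pdgfra, which encodes a receptor for Pdgfa, was at 48.0, 52.9 and 50.9 CPM on day 14 and at 93.4, 40.4, 59.2 and 76.8 CPM on day 21, and its libraries overlapped.

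Of the 15 genes of smallest p in this direction, 3 encode enzymes of retinoid or lipid metabolism. Dhrs3, a reductase that turns retinaldehyde back to retinol, had the smallest p of all genes (0.000112). It lies on chromosome 4 from 144619245 to 144654779, was at 28.8, 28.2 and 30.01 CPM on day 14 and at 170, 88.8, 98.7 and 83.8 CPM on day 21, which is a log2 fold change of 1.93 (standard error 0.41, edgeR adjusted p = 0.555). The 3 day 14 libraries were almost equal and replicate 1 was the highest on day 21. Lpl, the lipoprotein lipase that releases fatty acids from circulating triglyceride, lies on chromosome 8 from 69284603 to 69360100. It was at 242, 224 and 294 CPM and then at 752, 904, 482 and 535 CPM (1.40, standard error 0.31, edgeR adjusted p = 0.555, DESeq2 adjusted p = 0.00514). Chka, a choline kinase of phosphatidylcholine synthesis, was at 54.4, 61.8 and 44.4 CPM and then at 111, 125, 87.2 and 121 CPM (1.05, standard error 0.32).

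Lpl is also made by adipocytes and macrophages, and markers of both were read beside it. The summed adipocyte markers were at 10.4 to 12.8 CPM on day 14 and 23.3 to 211 CPM on day 21, mostly Cfd, the complement factor D of fat, which had at most 3 counts in each day 14 library and 69.8, 54.5, 141 and 4.65 CPM on day 21. In the mean that is at least 14.5-fold higher, computed against 3 counts in each day 14 library, and covers counting error only. The day 21 library at 4.65 CPM itself held at most 3 counts. The fat-defining Adipoq had 0 counts in every day 14 library and a level of 3.29 CPM in 1 day 21 library and 0 in the other libraries of that day. Summed macrophage markers overlapped between the days, at 1699 to 3980 CPM and 2487 to 4184 CPM. The part of fat in the change of Lpl was not tested.

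Other genes with separate libraries have roles in ubiquitin transfer, mitochondrial import and chromatin. Wwp2, a HECT-type ubiquitin ligase, lies on chromosome 8 from 108162988 to 108286023. It was at 392, 469 and 540 CPM on day 14 and at 1093, 930, 775 and 796 CPM on day 21 (log2 fold change 0.94, standard error 0.21, edgeR adjusted p = 0.555, DESeq2 adjusted p = 0.00106). Lrrc17, a secreted leucine-rich repeat protein, on chromosome 5 from 21748557 to 21780974, was at 721, 244 and 829 CPM and then at 2043, 1925, 1317 and 1350 CPM (1.47, standard error 0.36, DESeq2 adjusted p = 0.00811). Timm22, the channel of an inner mitochondrial membrane import complex, was at 197, 157 and 369 CPM and then at 564, 652, 474 and 398 CPM (1.11, standard error 0.29, DESeq2 adjusted p = 0.0132). Smarcd3, a subunit of the SWI/SNF chromatin remodeller with known roles in heart and muscle, was at 94 to 150 CPM and then at 196 to 268 CPM. Raph1, an actin regulator of lamellipodia, Hnrnph3, a splicing factor, Ubash3a, known from T cells, and a transcript on an unplaced scaffold without a symbol complete the 15 genes of smallest p in this direction with Igkc, which is described with the leukocytes below.

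**Figure D2:**
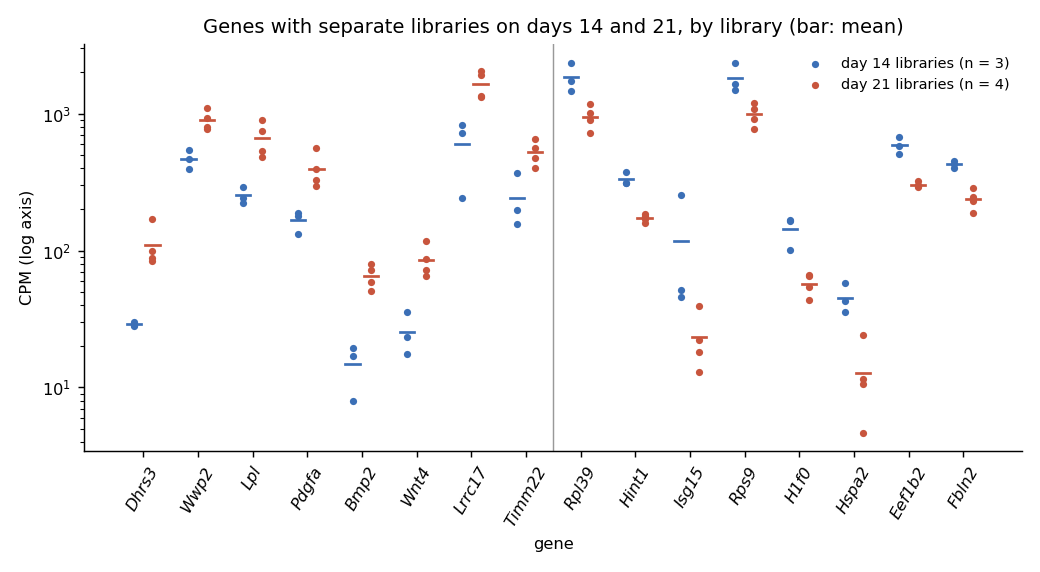
CPM on a log axis in each day 14 library (blue, n = 3) and each day 21 library (red, n = 4) for 8 genes that were higher and 8 that were lower on day 21, with bars at the means. The libraries of the days are separate for all 16 genes, by a narrow gap for Timm22 and Isg15.

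The genes lower on day 21 were led by Rpl39, Hint1, Isg15 and Rps9. Hint1, a nucleotide hydrolase of the histidine triad family, lies on chromosome 11 from 54757201 to 54761651, was at 312, 311 and 373 CPM on day 14 and at 177, 186, 171 and 158 CPM on day 21, and changed by -0.94 on the log2 scale (standard error 0.22, edgeR adjusted p = 0.575, DESeq2 adjusted p = 0.00514). Its libraries were close together within each day. Fbln2, a fibulin of elastic fibres and basement membranes, on chromosome 6 from 91189437 to 91249522, was at 450, 401 and 429 CPM and then at 189, 246, 286 and 230 CPM (-0.84, standard error 0.25, DESeq2 adjusted p = 0.0335). H1f0, the linker histone of cells that have left the cycle, was at 163, 101 and 168 CPM and then at 43.8, 54.5, 65.8 and 65.2 CPM (-1.34, standard error 0.35).

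Hspa2, an HSP70 chaperone, was at 57.6, 35.3 and 43.1 CPM on day 14 and at 10.7, 24.2, 11.5 and 4.65 CPM on day 21. Nfu1, which delivers iron-sulfur clusters in mitochondria, was at 72.0, 72.4 and 56.1 CPM and then at 20.1, 30.3, 28.0 and 20.9 CPM. Rrs1, a factor of large ribosomal subunit assembly, was at 15.996, 40.6 and 43.1 CPM and then at 9.46, 4.04, 1.64 and 6.98 CPM. For Aff3, a subunit of a transcription elongation complex, and Tmem218, a protein of primary cilia, every day 21 library held at most 3 counts. Their day 14 means of 18.5 and 18.4 CPM were at least 3.45-fold and 3.41-fold higher, against 3 counts in each day 21 library. Aff3 was at 20.8, 3.53 and 31.3 CPM on day 14, and its day 14 replicate 2 held at most 3 counts as well.

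Exons of some of these genes overlap exons of a gene on the opposite strand, such as Fbxl13 at Lrrc17, Abr at Timm22, Ndufs1 at Eef1b2, Sphk2 at Rpl18 and Dennd4c at Rps6. Whether the counting was stranded is not given in the sources used here, and without that reads from either partner cannot be told apart.

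Genes for the proteins of the cytoplasmic ribosome were lower on day 21 almost throughout. Of 85 genes collected by their symbols 79 were tested, and 77 had a log2 fold change below 0, against 50.3% of all genes tested. Their median was -0.48, beside -0.004 for all genes, and the lowest was -1.17 for Rpl36a. At an unadjusted p under 0.05, 47 were lower and 0 higher, against 2.19% of all genes that were lower at that p, and for 49 every day 21 library lay below every day 14 library, against 4.44% of all genes. None passed the adjusted threshold in edgeR. DESeq2 called 18 of them, out of 30 calls among the 716 genes to which it gave an adjusted p (4.19%). With adjustment over all 10307 genes with a p, 3 of its 30 calls were left. For 57 of the 79 the interval lay within 2-fold, against 18.4% of all genes, 72.6% of those at 300 to 1000 CPM and 73% of those above. The shares of all genes are thus not matched for level. Of the 122 genes above 1000 CPM, 42 had an unadjusted p under 0.05 in either direction, ribosomal protein genes among them. The 45 genes of the large subunit had a median of -0.48 and the 32 of the small subunit one of -0.49. Summed over the list, the level was 91441, 90874 and 120820 CPM on day 14 and 70759, 77698, 66789 and 77191 CPM on day 21, so the libraries of the days were separate, with day 14 replicate 3 the highest. The sum was 90691 to 102120 CPM on day 0, 122730 to 142550 CPM on day 7 and 81109 to 90058 CPM on day 28, so the day 21 libraries were the lowest of the time course.

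Rpl39, on the X chromosome from 36345092 to 36349130, was at 1721, 1474 and 2337 CPM on day 14 and at 727, 1169, 893 and 1003 CPM on day 21 (log2 fold change -0.96, standard error 0.22, edgeR adjusted p = 0.555, DESeq2 adjusted p = 0.00106). Rps9 was at 1635, 1479 and 2364 CPM and then at 772, 1195, 909 and 1073 CPM (-0.89, standard error 0.23). Rpl18 was at 805, 824 and 1040 CPM and then at 549, 466, 533 and 538 CPM (-0.77, standard error 0.21). Rps6, the ribosomal protein that S6 kinase phosphorylates, was at 1169, 1025 and 1390 CPM and then at 718, 717, 694 and 824 CPM (-0.70, standard error 0.20). In each of the 4 genes replicate 3 was the highest day 14 library. That the days do not overlap is part of the rule that chose these genes. The 2 highest genes of the list overlapped between the days. Rpl13a was at 3142, 3102 and 3983 CPM and then at 2297, 4178, 2189 and 2783 CPM (-0.25, standard error 0.23). Rplp1 was at 3182, 3051 and 4368 CPM and then at 2503, 3267, 2067 and 2425 CPM (-0.46, standard error 0.20). Ribosomal protein genes have many processed pseudogenes, between which the counting can split reads, and the pseudogene Rps2-ps10 was among those of narrowest interval (log2 fold change -0.45, interval -0.83 to -0.07).

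Messenger RNAs of the translation machinery often begin with a run of C and T bases, the 5′ TOP motif, through which their translation is controlled by mTOR. The starts of 4 of the genes above are shown because the ribosomal protein genes hold most of the genes that DESeq2 called. Each line gives 15 bases before and 15 from the annotated start on, 5′ to 3′ on the strand of the gene, from RefSeq on GRCm38.p6, a build older than that of the counts. Capitals mark the longest run of C and T within 10 bases either side of the start.
Rpl39, chrX:37085208-37085237, minus strand: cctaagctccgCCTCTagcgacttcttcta
Rps9, chr7:3704026-3704055, plus strand: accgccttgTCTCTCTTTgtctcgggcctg
Rpl18, chr7:45718056-45718085, plus strand: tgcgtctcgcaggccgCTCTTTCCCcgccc
Rps6, chr4:86857353-86857382, minus strand: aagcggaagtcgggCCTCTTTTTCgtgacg
Within this window the runs are 5 bases long in Rpl39, 9 in Rps9 and Rpl18 and 10 in Rps6. The window cuts the run of Rpl18, which goes on past its edge in the line shown. It also cuts a later run of Rpl39, which is longer than the marked one when read over the whole line. A run of at least 8 bases in this window was present in 21 of 68 starts of the 57 ribosomal protein genes that matched the table (30.9%) and in 7.43% of all starts in it. This describes the letters of these windows only.

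Some other genes of translation were read after their values were seen, and edgeR called none of them. Eef1b2, a subunit of the elongation factor 1 exchange complex, was at 576, 510 and 675 CPM on day 14 and at 291, 301, 298 and 323 CPM on day 21 (log2 fold change -0.95, standard error 0.26, DESeq2 adjusted p = 0.0154). Tpt1, the translationally controlled tumour protein, was at 3401, 3125 and 4464 CPM and then at 2309, 2484, 2232 and 2576 CPM (-0.61). Eef1a1, the factor that brings aminoacyl-tRNA to the ribosome, was at 4738, 3803 and 4992 CPM and then at 2834, 3495, 2926 and 3427 CPM (-0.51, interval -0.89 to -0.12). The translocation factor Eef2 had a log2 fold change of -0.15 (standard error 0.19) and Eef1d one of 0.20 (standard error 0.23).

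The decline of the ribosomal protein genes depended on 1 library for its size. Without day 14 replicate 3 the median was -0.31, 74 of 79 genes were below 0, and 9 were lower at an unadjusted p under 0.05. In that fit 160 of all 10846 genes tested were lower at that p. The decline also ran beside the length of transcripts. Among the other genes of at least 100 CPM, leaving out those of the ribosome, of oxidative phosphorylation and of the mitochondrial genome, the median log2 fold change was -0.20 for 94 genes with a canonical transcript under 1000 bases, -0.11 for 286 genes of 1000 to 2000 bases, -0.03 for 539 of 2000 to 4000 bases and 0.06 for 566 longer ones. Every day 21 library lay below every day 14 library for 15 of those 94 short genes (16%). The part of transcript length in the ribosomal change was not tested.

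Genes for the respiratory chain had estimates of opposite sign in the nuclear and the mitochondrial genome. Of 118 listed nuclear genes of oxidative phosphorylation 90 were tested, 78 were below 0, and the median log2 fold change was -0.30. The list was collected by the start of the symbols and so also holds assembly factors. Of the 90, 8 were lower at an unadjusted p under 0.05, against 2.19% of all genes, and 0 were higher. For 15 (16.7%) every day 21 library lay below every day 14 library, against 4.44% of all genes and 16% of the 94 short genes given above. The part of transcript length in the change of this list was not tested. Uqcrb, a subunit of complex III, was at 259, 217 and 257 CPM on day 14 and at 111, 80.7, 153 and 130 CPM on day 21 (log2 fold change -1.04, standard error 0.33). Cox4i1, a subunit of cytochrome c oxidase, was at 474, 443 and 497 CPM and then at 477, 365, 419 and 405 CPM, and its libraries overlapped. The summed level was 15191, 13855 and 14994 CPM on day 14 and 12389, 12099, 12565 and 11885 CPM on day 21, so the days were separate.

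All 13 transcripts of the mitochondrial genome had a log2 fold change above 0, with a median of 0.59, 3 of them at an unadjusted p under 0.05, against 1.89% of all genes higher at that p. mt-Nd1, a subunit of complex I, was at 1787, 1331 and 800 CPM on day 14 and at 2791, 1255, 2888 and 2262 CPM on day 21 (log2 fold change 0.82, standard error 0.30). mt-Co3, a subunit of cytochrome c oxidase, was at 9412, 6623 and 5544 CPM and then at 8263, 9344, 11970 and 9400 CPM (0.44, standard error 0.24). The summed level was 34865, 24837 and 18251 CPM on day 14 and 35269, 28636, 48443 and 36789 CPM on day 21. The libraries of the days overlapped in all 13 transcripts and in the sum, and without day 14 replicate 3 the median was 0.32 with 0 transcripts at an unadjusted p under 0.05. Transcripts of 1 genome share their transcription and the state of the RNA, and are not independent.

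**Figure D3:**
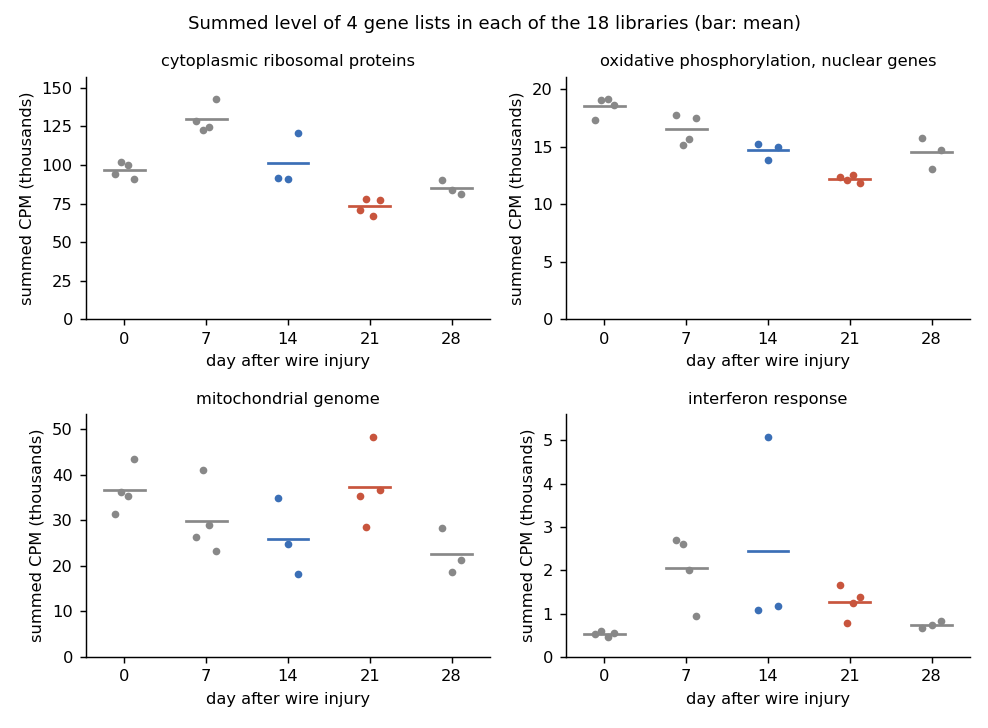
Summed CPM of 4 gene lists, in units of 1000 CPM, in each of the 18 libraries by day after wire injury, with bars at the means and days 14 (blue) and 21 (red) in colour. Ribosomal protein and nuclear oxidative phosphorylation sums of days 14 and 21 do not overlap, mitochondrial sums do, and day 14 replicate 2 is far above the other libraries for the interferon response.

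Most lists of matrix genes had a median near 0, with wide intervals for single genes. Of 10 fibrillar collagen genes tested, 6 were above and 4 below 0, with a median log2 fold change of 0.29. The median was 0.79 without day 14 replicate 2, 0.02 without day 21 replicate 1, 0.13 without day 21 replicate 2, and 0.18 to 0.20 without day 14 replicate 3 or 1. Col1a1, a chain of collagen I, was at 9348, 15420 and 10200 CPM on day 14 and at 27260, 17530, 10740 and 17660 CPM on day 21 (log2 fold change 0.65, interval 0.08 to 1.22, adjusted p = 0.999 in edgeR). Col1a2, its partner chain, was at 7209, 11840 and 7772 CPM and then at 15290, 13000, 8097 and 14480 CPM (0.51, interval 0.02 to 1.00). Day 21 replicate 3 lay within the day 14 range for both chains. Col3a1, the fibrillar collagen of elastic vessels, was held within 2-fold with a log2 fold change of 0.07.

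Of 19 elastic fibre genes 11 were above and 8 below 0, with a median of 0.02, and 11 were held within 2-fold. Eln, which encodes elastin, was at 46450, 20300 and 35620 CPM on day 14 and at 43590, 42890, 33480 and 38300 CPM on day 21 (log2 fold change 0.21, interval -0.76 to 1.19). Fbln2, given above, was the only elastic fibre gene at an unadjusted p under 0.05. Of 10 proteoglycan genes 7 were above 0, with a median of 0.14. The small proteoglycan Bgn was at 10670, 8511 and 8477 CPM and then at 9972, 8610, 10800 and 9663 CPM, and Ogn, another member of that family, at 533, 217 and 197 CPM and then at 402, 618, 480 and 570 CPM (0.71, standard error 0.30). Among matricellular genes Tgfbi, a TGF-beta induced adhesion protein, was at 154, 517 and 219 CPM and then at 130, 151, 188 and 123 CPM (-0.997, standard error 0.35), with day 14 replicate 2 the highest. Timp1, an inhibitor of matrix metalloproteinases, followed the same library, at 286, 1278 and 458 CPM and then at 376, 315, 273 and 179 CPM.

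The contractile genes of smooth muscle varied widely within each day, with summed levels of 11762 to 36373 CPM on day 14 and 13312 to 33089 CPM on day 21. Of 20 tested, 13 were above and 7 below 0, with a median of 0.15. The median turned on single libraries. It was 0.87 without day 14 replicate 1, with 20 of 21 genes above 0. In that fit 8 of them were higher at an unadjusted p under 0.05, against 198 of all 10844 genes tested. The median was -0.13 without day 14 replicate 2, -0.09 without day 14 replicate 3, -0.05 without day 21 replicate 3 and 0.28 without day 21 replicate 2. limma-voom put 18 of 20 genes above 0. Acta2, smooth muscle actin, was at 10670, 3874 and 4227 CPM on day 14 and at 6552, 4226, 11600 and 7944 CPM on day 21 (log2 fold change 0.28, interval -0.46 to 1.02). Cnn1, the smooth muscle calponin, was at 1518, 450 and 411 CPM and then at 673, 597, 1352 and 973 CPM (0.18, interval -0.721 to 1.082). Day 14 replicate 1 and day 21 replicate 3 were the high libraries for both genes. Sost, which encodes the Wnt antagonist sclerostin and is also made by vascular smooth muscle, had the smallest p of the list, at 397, 65.3 and 219 CPM and then at 687, 68.6, 819 and 1031 CPM (1.52, standard error 0.61), with overlapping libraries.

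SEM cells, named for features of stem cells, endothelial cells and monocytes, are known as an intermediate state of smooth muscle cells. A list of 8 genes was read for them, part of it named as SEM genes in the paper, with Spp1, Ly6a and Vcam1 added here. Of the 8, 2 were above 0, Col1a1 and Col1a2, and 6 below, with a median of -0.42, and none passed the adjusted threshold. Fn1, fibronectin, was at 3983, 6039 and 4740 CPM on day 14 and at 4145, 3532, 4371 and 3946 CPM on day 21 (log2 fold change -0.30, interval -0.74 to 0.15). Ly6a, the Sca-1 antigen, was at 298, 734 and 412 CPM and then at 241, 295, 525 and 277 CPM (-0.52, interval -1.18 to 0.14). Lgals3, galectin 3, was at 136, 335 and 258 CPM and then at 159, 121, 268 and 93.1 CPM (-0.59, interval -1.38 to 0.19). Day 14 replicate 2 held the highest day 14 level of these 3 genes, and the day 21 libraries overlapped with day 14 for each.

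Interferon-stimulated genes were high in a single day 14 library. Of 25 tested, 24 had a log2 fold change below 0, with a median of -1.24, against 50.3% of all genes below 0, and 8 were lower at an unadjusted p under 0.05, against 2.19% of all genes. The summed level was 1077, 5091 and 1177 CPM on day 14 and 1654, 771, 1245 and 1373 CPM on day 21. Without day 14 replicate 2 the list had 12 genes below and 13 above 0, a median of 0.02 and 0 genes at an unadjusted p under 0.05. Isg15, a ubiquitin-like protein and one of the strongest interferon targets, was at 51.2, 254 and 45.7 CPM and then at 13.01, 22.2, 18.1 and 39.6 CPM, so every day 21 library was below the 2 lower day 14 libraries too. Its log2 fold change was -2.36 (standard error 0.60, adjusted p = 0.575 in edgeR) and ranged from -2.75 to -0.87 over the alternatives. Cxcl10 and Cxcl9, chemokines that interferon gamma induces and that attract T cells, were at 612 and 148 CPM in day 14 replicate 2 and at no more than 27.9 and 4.65 CPM in the other 6 libraries. The list of 19 chemokine genes tested had a median of -0.26, with 14 below 0. Without day 14 replicate 2 its median was 0.78, with 4 genes below and 15 above 0. It was -0.78, -0.69 and -0.77 without day 14 replicate 1, day 14 replicate 3 and day 21 replicate 3, and -0.12 without day 21 replicate 1.

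Other leukocyte genes changed library by library. Of 20 macrophage genes 8 were above and 12 below 0, with a median of -0.06, which ranged from -0.18 without day 14 replicate 1 to 0.26 without day 14 replicate 2. Lyz2, lysozyme, was at 411, 792 and 929 CPM on day 14 and at 726, 1937, 1404 and 726 CPM on day 21, and C1qb, a chain of complement C1q, at 173, 337 and 345 CPM and then at 496, 406, 301 and 305 CPM. Neutrophil markers summed to 91.2 to 268 CPM and 111 to 597 CPM, with S100a9, a subunit of calprotectin, at 240 CPM in day 21 replicate 3 and at no more than 70.6 CPM in the other libraries. The elastase Mmp12, made by macrophages, was at 230 CPM in the same library and at no more than 18.6 CPM in the others.

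Immunoglobulin transcripts were higher on day 21 in their sum and for Igkc, but not for each gene. Igkc, the constant region of the kappa light chain, on chromosome 6 from 70703419 to 70703950, had 0, 1 and 0 counts on day 14 and was at 31.9, 60.6, 21.4 and 76.8 CPM on day 21, at least 10.2-fold higher against 3 counts in each day 14 library (adjusted p = 0.575 in edgeR). The summed level of 13 immunoglobulin genes, collected after the values of Igkc were seen, was 11.2, 33.5 and 36.5 CPM on day 14 and 130, 268, 69.1 and 240 CPM on day 21. On day 28 the sum was 139, 0 and 30.4 CPM and on day 7 it was 17.8 to 77.7 CPM. Summed B and plasma cell markers were 15.996 to 35.2 CPM on day 14 and 37.8 to 154 CPM on day 21. Both sums hold Igkc, which was chosen for its separate libraries, so they are no independent support for its change. Ighm, also in both, was at 7.998, 14.1 and 35.2 CPM and then at 28.4, 26.2, 1.64 and 55.8 CPM, and overlapped. Jchain was at 0 in every day 14 library and at 18.9, 36.3, 8.22 and 0 CPM on day 21. The defining B cell gene Cd79a stayed at no more than 6.06 CPM in all 7 libraries. Haemoglobin transcripts were also high in 2 of the day 21 libraries, with summed erythroid markers at 291 CPM in replicates 1 and 4 and at 32.3 and 77.3 CPM in replicates 2 and 3, against 28.8 to 61.3 CPM on day 14. The part of blood in the immunoglobulin levels was not tested.

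Of 28 cell cycle genes tested, 20 were below and 8 above 0, with a median of -0.20. Without day 14 replicate 2 the median was 0.07, with 12 below and 17 above 0, without day 14 replicate 1 it was -0.48, and without day 21 replicate 3 it was -0.11. Mcm4, a subunit of the replicative helicase, was at 12.8, 30.001 and 11.7 CPM on day 14 and had at most 2 counts in any day 21 library, so that its day 14 mean was at least 3.38-fold higher against 3 counts in each. Cartilage and mineralization genes had a median of 0.56 over the 14 tested, with 10 above 0 and none at an unadjusted p under 0.05. The median was -0.16 without day 21 replicate 1, 0.06 without day 14 replicate 1 and 1.13 without day 14 replicate 2. Chad, the cartilage matrix protein chondroadherin, was at 147 CPM in day 21 replicate 1 and at no more than 17.6 CPM in the others. Of 15 heat shock genes 12 were above 0, with a median of 0.22, and of 12 Notch axis genes 8 were above 0, with 2 higher at an unadjusted p under 0.05, against 1.89% of all genes. Notch3, the Notch receptor of smooth muscle, was at 57.6, 75.9 and 30.01 CPM and then at 97.0, 105, 67.4 and 172 CPM (log2 fold change 1.02, standard error 0.40).

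The remaining lists are given by their medians and counts. Glycolysis was at -0.03 with 8 of 18 genes above 0, endoplasmic reticulum chaperones at 0.05 with 9 of 16, the TGF-beta axis at 0.10 with 11 of 16, lipid handling at 0.10 with 11 of 18 (-0.11 without day 14 replicate 1 and -0.09 without day 21 replicate 2) and basement membrane at 0.08 with 8 of 14. Matrix proteases and their inhibitors were at -0.08 with 9 of 21 above 0, complement at -0.09 with 6 of 16, cholesterol synthesis at -0.17 with 6 of 16 and MHC class II at -0.23 with 2 of 8. Genes of the activated muscle cytoskeleton were at -0.03 with 7 of 16, other collagens at -0.29 with 3 of 11, collagen synthesis enzymes at -0.08 with 4 of 12 and immediate early genes at 0.04 with 11 of 20. The insulin-like growth factor axis was at 0.22 with 6 of 9 and the Wnt antagonists at 0.19 with 6 of 8.

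**Figure D4:**
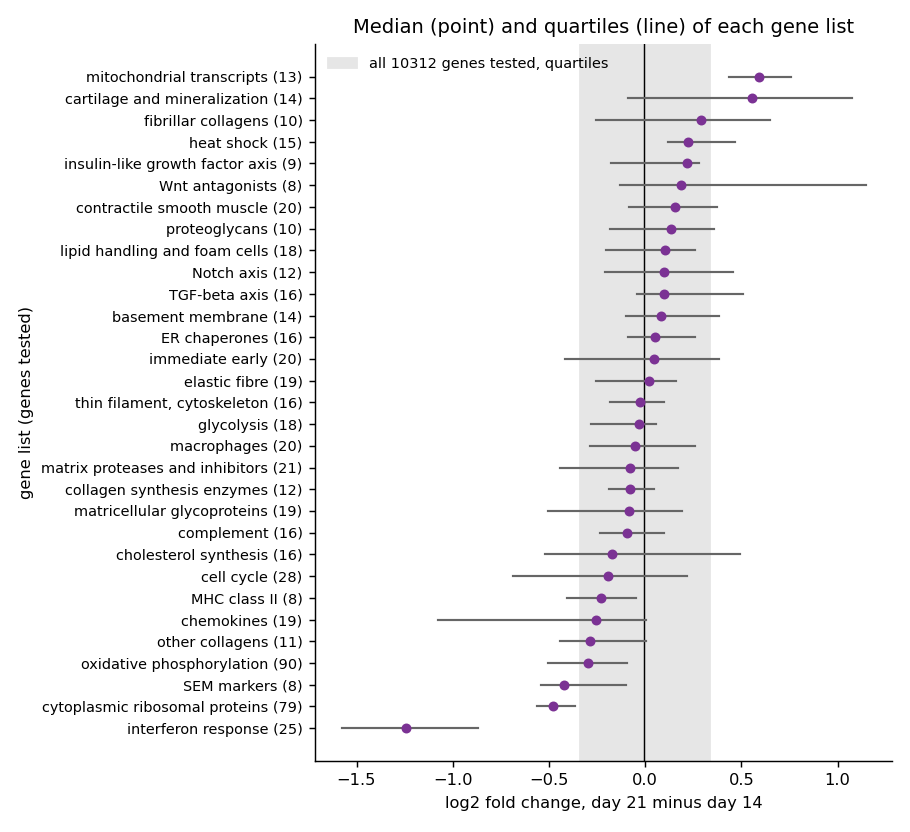
Median (point) and quartiles (line) of the log2 fold change from day 14 to day 21 for each gene list other than the cell type markers, with the number of genes tested in brackets and the quartiles of all 10312 genes as a grey band. Among the lists drawn, mitochondrial transcripts lie highest and the interferon response lowest. The quartiles of both these lists and of the ribosomal protein genes lie outside the grey band.

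Genes that differed between days 0 and 7 were followed over the later interval. Of the 1161 genes higher on day 7 than on day 0 (11.3% of the genes tested), 740 (63.7%) had a log2 fold change below 0 between days 14 and 21, with a median of -0.20, beside 50.3% and -0.004 for all genes. Of the 880 genes lower on day 7 (8.53%), 344 (39.1%) were below 0, with a median of 0.11. None of either set was called. These 2 comparisons share no library, although 3 mouse numbers occur on both day 0 and day 21. The pattern rested on day 14 replicate 2, since without it the medians were 0.06 and -0.03.

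The position of the libraries along the response was wider on day 14 than on day 21. In a principal component analysis of the 500 most variable genes the first component held 59% of the variance, with day 0 libraries from -41.0 to -35.8 and day 7 libraries from 22.3 to 46.6. Day 14 libraries were at -8.06, 32.1 and 12.4 and day 21 libraries at 10.6, 8.87, 5.78 and 5.19. All 4 day 21 libraries lay inside the day 14 range. The means differed by -4.51 in an exact two-sided permutation test (p = 0.629, Benjamini-Hochberg adjusted over 3 measures 0.743, n = 3 and 4), whose smallest possible p is 0.0286. Measured on the first 2 components, day 14 libraries lay 53.4 ± 19 (SD, n = 3) from the day 0 mean. The day 21 libraries lay 51.4 ± 3.13 from it (SD, n = 4, exact permutation p = 0.743, adjusted 0.743). Of the day 0 mouse numbers, 3 occur again on day 21 and none on day 14, which the permutation of the distances did not take into account.

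On the second component, with 8.85% of the variance, day 14 libraries were at -6.27, -8.46 and -7.01 and day 21 libraries at -15.8, -12.98, -9.61 and -14.2, with no overlap. The difference of -5.90 had an exact permutation p of 0.0571 (adjusted 0.171). It was -6.79 on all genes tested (exact permutation p = 0.486) and -4.75 on the 500 genes most variable after injury (exact permutation p = 0.4). Without day 14 replicate 2 the differences on the first component and in distance turned to 5.45 and 7.61.

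**Figure D5:**
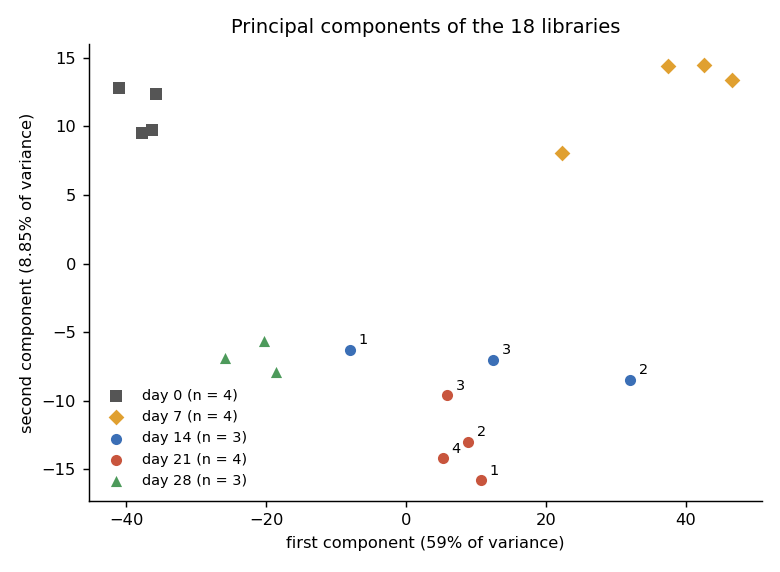
First and second principal component of log2 CPM over the 500 most variable genes for the 18 libraries, with replicate numbers beside the libraries of days 14 and 21. Day 14 libraries spread along the first component on both sides of the 4 day 21 libraries, which lie together and lower on the second.

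Whether a change between days 14 and 21 differed from that of the neighbouring interval was tested with contrasts in the same fit. Neighbouring intervals share the libraries of day 14 or of day 21, which count in both changes of a contrast. Against the interval from day 7 to 14, 1 gene differed in edgeR (373 at an unadjusted p under 0.05). Cys1, the ciliary membrane protein cystin, was at 1.80 to 7.12 CPM on day 7, at 84.8, 47.7 and 74.4 CPM on day 14 and at 46.1, 62.6, 72.4 and 58.2 CPM on day 21, so its earlier rise did not go on (difference of the changes -3.98, adjusted p = 0.0437). Against the interval from day 21 to 28, 9 genes differed, 8 with a more positive change from day 14 to 21. Among them were Col1a1, with a difference of 3.26 (standard error 0.47, adjusted p = 0.00213), Col1a2 (2.37, adjusted p = 0.0121) and Sparc, a collagen-binding glycoprotein (2.29, adjusted p = 0.033). Col1a1 went from 10740 to 27260 CPM on day 21 to 2719, 2550 and 3717 CPM on day 28.

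Dhrs3 had a difference of 4.63 (adjusted p = 0.00213), since it was at 21.5, 6.62 and 22.4 CPM on day 28, below its day 14 libraries. Igfbp2, a binding protein of insulin-like growth factors, was at 477, 233 and 154 CPM on day 14, at 891, 367, 735 and 738 CPM on day 21 and at 170, 119 and 133 CPM on day 28 (difference 3.53, adjusted p = 0.033). Hint1 was the only gene of the opposite sign, lower on day 21 and at 322, 359 and 491 CPM on day 28 (difference -2.11, adjusted p = 0.0275). Ecrg4 (adjusted p = 0.0275), Pla2g7 (adjusted p = 0.0276) and Zfp7 (adjusted p = 0.033) complete the 9 genes, the last pair with 0 counts in every day 28 library. Fits that left out 1 of the 7 libraries called 0 to 1 genes in the first contrast and 2 to 12 in the second.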

How the data were processed

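The libraries were made by MACE-seq (3′ ends, poly-A primed) from laser-dissected carotid sections. The authors quantified the reads with Salmon 1.9.0 on mm39 according to the submitters' processing notes, and deposited expected counts per gene as whole numbers, together with normalised values, a signal made with DESeq2 1.36.0. The annotation release and the use of the strand are not given in the sources used here. The expected counts were used throughout, and the normalised signal in 1 alternative of the principal component analysis.

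Counts of all 18 libraries, grouped by the day in their labels, were analysed in R 4.3.3. The main test was the quasi-likelihood test of edgeR 4.0.16 on TMM-scaled counts, with genes kept by filterByExpr and p-values adjusted by Benjamini-Hochberg over 10312 genes. DESeq2 1.42.0 and limma 3.58.1 (voom) served as alternatives. Intervals are 95% Wald intervals of the fitted log2 fold change with moderated degrees of freedom. The steps were tested on simulated data. Lower bounds of folds cover counting error only. Where all libraries of a day held at most 3 counts, folds were set against 3 counts in each. Principal components used log2 CPM with a prior count of 2.

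Named genes follow a rule. It takes the 15 genes of smallest p with separate libraries in each direction, the 2 highest genes and the gene of smallest p in every list, the SEM genes with Cnn1, Pdgfra and Col8a1, the 3 genes that most mark each library, and the most precise and least changed genes. Genes named otherwise were chosen after their values were seen. The members and lists were chosen with earlier results of these data known. Replicate numbers did not pair libraries (residual correlations -0.0776, 0.0166 and -0.0357 for numbers 1, 2 and 3). Gene positions are from GENCODE on GRCm39, and transcript lengths matched 98.1% of the genes tested. Alternatives changed the tool, scaling, filter, libraries, block, depth and threshold. The result of 1 gene is not reported here.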

Additional observations from a re-analysis of the deposited data

Results flagged for a closer look

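In 89 looks for a day 21 library that stood apart from the other 3, 7 were found, and chance gives about 1 in 20. Day 21 replicate 3 was high for summed chemokines (1154 CPM), neutrophil markers (597 CPM) and adventitial fibroblast markers (5560 CPM). Replicate 1 was high for skeletal muscle markers (517 CPM), and replicate 2 for cholesterol synthesis genes (529 CPM) and Vcam1, an adhesion molecule for leukocytes (547 CPM). Aff3 was at 1.64 CPM in replicate 3, a single count, and at 0 in the others.

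In all, 10 genes had a change from day 14 to 21 that differed from that of a neighbouring interval in the test of the difference. They were Cys1 against days 7 to 14 (-3.98 on the log2 scale) and, against days 21 to 28, Col1a1 (3.26), Col1a2 (2.37), Dhrs3 (4.63), Ecrg4 (4.92), Hint1 (-2.11), Igfbp2 (3.53), Pla2g7 (8.85), Sparc (2.29) and Zfp7 (8.63). In each of these genes the change of the neighbouring interval was the larger in size. For Col1a1 it was -2.61 from day 21 to 28, beside 0.65 from day 14 to 21. The values of Pla2g7 and Zfp7 depend on the prior count, since both had 0 counts in every day 28 library.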

How the results depend on the processing

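The count of 0 genes between days 14 and 21 held in edgeR with RLE factors, a stricter filter, only the 7 libraries, the replicate block, thinned depth, a threshold of 0.1, a minimum fold of 1.5 and each library left out, and in limma-voom with and without the mouse number. It was 30 with DESeq2 (5 higher, 25 lower), 3 with DESeq2 adjusted over all genes (2 and 1), and 23 without a filter on low counts (13 and 10), of which 5 had separate libraries. The cause was not tested. The genes held within 2-fold were 1164 to 1568 with 1 library left out, 987 without both libraries with skeletal muscle transcripts, an alternative chosen after seeing the data, and 1636 with the replicate block, which called 0 genes. The interval contrasts called 3 and 60 genes with DESeq2, and 0 to 1 and 2 to 12 with 1 library left out. Differences on the first component ran from -14.6 to 5.45 and in distance from -11.4 to 7.61 with 1 library left out, turning without day 14 replicate 2, and on the second from -7.07 to -5.02. The log2 fold changes of the 30 lead genes kept their sign in every alternative. They were chosen for separate libraries on the 2 days, so leaving out a library could hardly turn a sign. The lead genes past the adjusted threshold outside DESeq2 were Dhrs3, Lpl, Lrrc17, Igkc and Isg15, without a filter. Differences on the second component ran from -10.8 (prior count 0.5) to -4.37 (prior count 5) over the other settings. With the replicate block the median of the fibrillar collagens was 0.02 and that of the chemokines -0.06. Most genes under 100 CPM have intervals past 2-fold; the shares of depth and of spread between libraries in this were not tested.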
